A study of Mus musculus with 24 samples.

Results

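The genes described here are 10 genes of lipid storage and fatty acid use, Plin4, Lpl, Plin2, Plin3, Pnpla2, Lipe, Angptl4, Pdk4, Cpt1a and Acsl1, of 14074 genes measured by RNA-seq in the mouse prefrontal cortex (PFC). All 10 had a row under their symbol in the table of normalized counts. Plin4 was included for its rise after dexamethasone (DEX, a synthetic glucocorticoid) and Lpl for its difference between stressed and control mice after saline, both in earlier results of these data, so those contrasts, and the DEX differences of Lpl that share the same saline libraries, are given below as values without a test. The other 8 were listed as their partners in the same pathway, also with earlier results of these data known. Their adjusted p-values are thus not those of a list fixed beforehand.

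The 24 libraries came from adult male C57BL/6 mice, 1 library per mouse and 4 per group. Control mice were not defeated and lived alone in their cages in the days before the experiment. The other mice had 30 days of chronic social defeat by aggressive CD1 males and were divided, by clustering of their behavior in non-aggressive contact, into a passive coping strategy (PS, dep1 in the labels) and an active coping strategy (AS, dep2). Within each phenotype, mice received saline or 2 mg/kg DEX, and tissue was taken 6 h later. PS and AS are thus behavioral classes of mice with the same stress and genotype, and the tissue is bulk cortex, in which fewer cells of a type and less RNA per cell cannot be told apart.

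Cells keep neutral lipid, mainly triglycerides and cholesterol esters, in lipid droplets whose surface carries perilipins. Stored triglyceride is broken down in steps by adipose triglyceride lipase and then hormone-sensitive lipase, and the freed fatty acids are activated with coenzyme A and either re-esterified or carried into mitochondria for oxidation. Lipoprotein lipase works outside the cell on triglyceride in lipoproteins, and ANGPTL4 inhibits it. In brain, droplets are found mostly in glia and vascular cells, and glucocorticoids are known to act on several of these genes in fat, liver and muscle.

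Promoter sequences were taken from RefSeq (GRCm38.p6, the same build as the mm10 files) as 250 bases before and 50 after each transcription start. They were present for 8 of the 10 genes, with 10 starts in all, since Lipe and Acsl1 have more than 1 start; Lpl and Angptl4 had none. The windows of the 3 genes with a promoter entry that rose in the mean DEX effect are shown because the members that rise together can be compared there, in lower case with motif matches in capitals. For Lipe only the window of the inner start is shown, and the other, chr7:25395938-25396237, held no match.
Plin4, minus strand, chr17:56109733-56110032: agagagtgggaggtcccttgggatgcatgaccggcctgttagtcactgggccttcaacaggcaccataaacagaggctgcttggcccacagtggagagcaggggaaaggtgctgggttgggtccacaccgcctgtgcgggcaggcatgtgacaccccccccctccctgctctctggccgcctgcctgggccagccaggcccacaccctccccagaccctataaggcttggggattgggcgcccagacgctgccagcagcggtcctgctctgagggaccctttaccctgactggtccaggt
Pnpla2, plus strand, chr7:141454938-141455237: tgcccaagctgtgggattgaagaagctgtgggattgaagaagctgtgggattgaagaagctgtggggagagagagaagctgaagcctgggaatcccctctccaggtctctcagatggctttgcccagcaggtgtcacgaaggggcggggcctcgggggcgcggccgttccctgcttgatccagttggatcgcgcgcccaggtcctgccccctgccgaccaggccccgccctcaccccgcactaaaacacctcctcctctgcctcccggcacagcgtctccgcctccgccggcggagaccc
Lipe, minus strand, the inner start, chr7:25390063-25390362: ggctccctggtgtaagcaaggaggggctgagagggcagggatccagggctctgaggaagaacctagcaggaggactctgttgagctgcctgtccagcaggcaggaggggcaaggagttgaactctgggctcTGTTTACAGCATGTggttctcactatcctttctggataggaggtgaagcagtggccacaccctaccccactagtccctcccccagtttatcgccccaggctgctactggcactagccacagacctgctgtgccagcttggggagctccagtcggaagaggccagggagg
The motifs were searched on both strands. The palindromic glucocorticoid receptor element stood in 0.475% of all 32851 promoters of this length and in none of the 10 member windows. Its looser core, ACANNNTGT, which every full element also holds, was in 6.85% of all promoters and, among the members, in the inner Lipe window, 114 bases before the start. The FOXO motif GTAAACA was in 3.65% of all promoters and, among the members, in the same Lipe window, where it overlaps the core. The receptor half-site AGAACA, present in 19% of promoters, and the direct repeat bound by PPAR, present in 0.0396%, had no match in the member windows. These are matches of letters in short windows and say nothing of sites elsewhere.

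The libraries held 21121869 to 59439645 reads in the genes of the table, and the AS groups had the higher medians. Across libraries the members were covered by 38 reads (Plin4) to 3588 reads (Acsl1), so none rested on single reads. The DEX labels were checked with the glucocorticoid targets Fkbp5, Tsc22d3 and Sgk1, whose DEX and saline groups did not overlap in any phenotype, with log2 differences of 0.67 to 2.26. Of 8 adipocyte markers, including Adipoq, Plin1 and Fabp4, none had a row in the table used here, while the 6 pyramidal neuron, 6 GABAergic neuron, 8 astrocyte and 8 microglial markers all had; the pyramidal markers summed to 204967 to 279889 normalized counts per library. Genes are compared by normalized counts (reads divided by a size factor per library), and differences are log2 differences of normalized count + 1 from limma, called at an adjusted p under 0.1 over all genes.

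**Figure D1:**
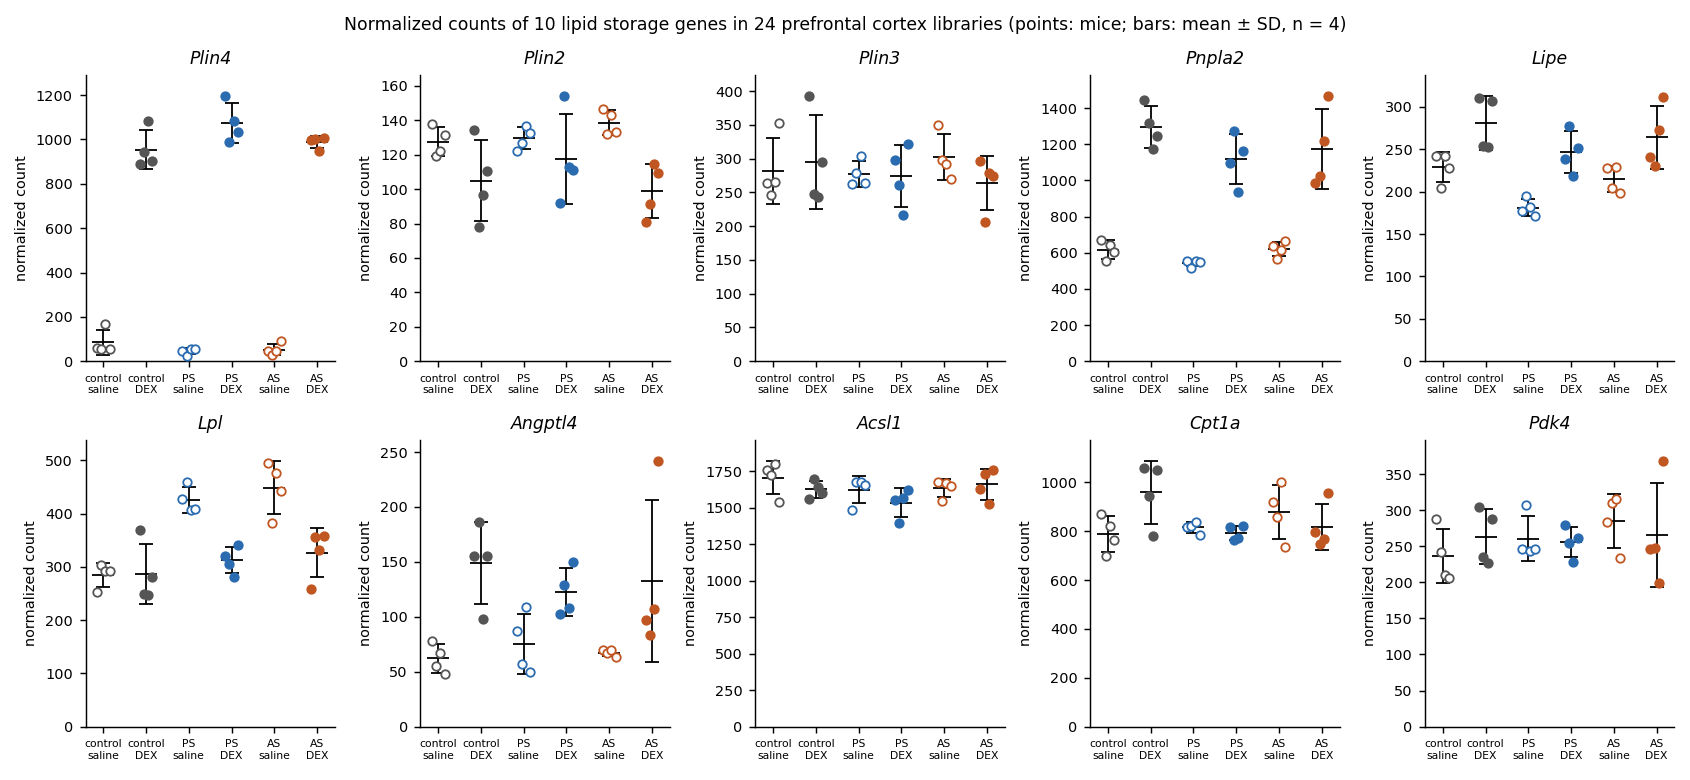
Normalized counts (y axis, linear from 0) of the 10 genes in the 6 groups (x axis). Points are mice, open for saline and filled for DEX, and bars are the mean ± SD of 4. Plin4 and Pnpla2 separate by treatment in every phenotype, Lpl is higher in the saline groups of PS and AS, and Acsl1 stays between 1396 and 1802.

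Among the perilipins, Plin4 went from the lowest level per kilobase with saline to the highest with DEX, while Plin2 and Plin3 did not rise. Plin4 (ENSMUSG00000002831.14, chr17:56100591-56109803, minus strand, mm10) encodes a perilipin of nascent droplets known mainly from fat and muscle. With saline its normalized counts were 59.4, 56.6, 169.7 and 55.2 in control mice, 48.4, 24.8, 55 and 54.7 in PS and 44.9, 29.1, 44.2 and 89.2 in AS. With DEX they were 889, 945, 1081 and 902 in control, 1197, 987, 1082 and 1034 in PS and 997, 1003, 949 and 1008 in AS. Every DEX library lay above every saline library, and the highest saline value, control mouse 109, was still far below the lowest DEX value of 889. The log2 differences were 3.65 (SE 0.30) in control, 4.59 (SE 0.30) in PS and 4.34 (SE 0.30) in AS, or 12.5-, 24- and 20.3-fold on that scale. Because this contrast chose the gene, no test is given.

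The order of the Plin4 group means with DEX was PS (1075 ± 90.1, SD, n = 4), AS (989 ± 27.2) and control (954 ± 87.8), and neighbours in that order did not differ past the threshold, nor did its ends, PS and control (log2 difference 0.17, SE 0.30, adjusted p = 0.841). That SE comes from 1 spread fitted over all groups, so it does not measure the spread of the DEX mice alone. Relative to their means, the saline groups varied more than these DEX groups. With saline the order was control (85.2 ± 56.4), AS (51.8 ± 26) and PS (45.7 ± 14.3). The log2 difference from control was -0.77 (SE 0.30) for PS and -0.64 (SE 0.30) for AS, and neither passed the threshold (adjusted p = 0.266 and 0.443). Without control mouse 109 these saline differences were -0.38 and -0.25, and the DEX difference in control became 4.04. The DEX response of PS exceeded that of control by 0.94 (SE 0.42) (adjusted p = 0.463) and that of AS exceeded it by 0.70 (SE 0.42) (adjusted p = 0.499), again not past the threshold, and without control mouse 109 these were 0.55 and 0.31.

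Plin2 (adipophilin, chr4:86648386-86670060, minus strand), the perilipin found on droplets of most cell types, fell with DEX. In AS its normalized counts were 146, 132, 143 and 133 with saline and 80.7, 91.6, 115 and 109 with DEX, groups that do not overlap. The log2 difference was -0.49 (SE 0.15) in AS (adjusted p = 0.054) and -0.32 (SE 0.09) as the mean of the 3 phenotypes (adjusted p = 0.0142). In control (-0.31 (SE 0.15), adjusted p = 0.338) and PS (-0.16 (SE 0.15), adjusted p = 0.758) it did not pass, and its response did not differ past the threshold between phenotypes (lowest adjusted p = 0.771). The AS call was lost with quantile normalization (-0.40, adjusted p = 0.12) and without AS saline mouse 8 or 40 or AS DEX mouse 38 or 42. Plin3 (TIP47, chr17:56277476-56292873, minus strand), a cytosolic protein that moves to new droplets, had 246 to 353 normalized counts in saline controls and 243 to 393 in DEX controls, and its differences of -0.20 to 0.05 among the 3 phenotypes did not pass (lowest adjusted p = 0.543). Plin3 lies 168 kb from Plin4 on the same chromosome.

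Divided by exon length (the union of annotated exons), Plin4 stood at 14.8 ± 9.76, 7.91 ± 2.47 and 8.97 ± 4.49 normalized counts per kb (SD, n = 4) in the saline groups of control, PS and AS, below Plin2 at 36.3 ± 2.41, 36.9 ± 1.81 and 39.5 ± 2.06 and Plin3 at 74.4 ± 12.8, 73.3 ± 5.15 and 79.9 ± 8.86. With DEX, Plin4 stood at 165 ± 15.2, 186 ± 15.6 and 171 ± 4.71 per kb. Of the summed level of Plin2, Plin3 and Plin4 per kb, Plin4 made up 11.6% ± 6.95 in control, 6.67% ± 1.97 in PS and 7.03% ± 3.66 in AS with saline, and 60.7% ± 6.82, 63.7% ± 3.91 and 63.7% ± 3.23 with DEX. Plin1 and Plin5, the remaining perilipin genes, had no row in the table used here. The exon lengths come from annotation vM21, in which Plin4 has another ID version than in the deposited table, so its level per kb and its share rest on a length that may differ from the one counted.

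**Figure D2:**
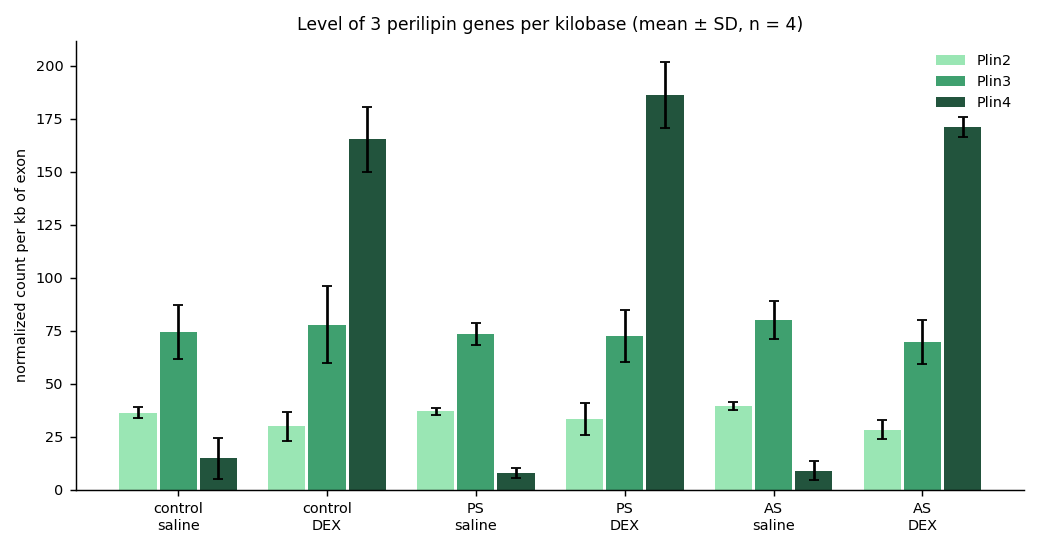
Level of Plin2, Plin3 and Plin4 in normalized counts per kb of exon (y axis, linear from 0) in the 6 groups (x axis); bars are means and whiskers the SD of 4 mice. Plin4 is the shortest bar in each saline group and the tallest in each DEX group, at 165 to 186 per kb.

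Both intracellular lipases rose in the mean DEX effect, Pnpla2 in each phenotype. Pnpla2 (ENSMUSG00000025509.15, chr7:141455198-141460743, plus strand) encodes adipose triglyceride lipase, which takes the first fatty acid from triglyceride. Its normalized counts were 671, 553, 640.4 and 605 in saline controls and 1446, 1318, 1172 and 1245 in DEX controls. In PS they were 556, 517, 553 and 549.8 with saline and 1098, 1272, 937 and 1163 with DEX. In AS they were 636, 568, 613 and 665 and 984, 1026, 1215 and 1468. No saline value reached any DEX value. The rise was 1.07 (SE 0.10) in control, 1.03 (SE 0.10) in PS and 0.90 (SE 0.10) in AS on the log2 scale, 2.10-, 2.04- and 1.87-fold (adjusted p = 3.08e-07, 7.17e-07 and 6.88e-06). The responses differed between phenotypes by -0.17 to -0.04 (SE 0.15), not past the threshold.

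Lipe (hormone-sensitive lipase, chr7:25379527-25398710, minus strand), which acts on diglyceride and cholesterol ester, rose by less. It was at 177, 195, 182 and 171 in saline PS mice and 239, 277, 219 and 251 in DEX PS mice, a log2 difference of 0.44 (SE 0.10) (adjusted p = 0.0141). The groups were also apart in control (204 to 242 and 253 to 311) and in AS (198.5 to 228.7 and 229.7 to 312.0), where the differences of 0.29 and 0.29 missed the threshold in limma (adjusted p = 0.13 and 0.113). In AS it passed with edgeR (adjusted p = 0.0965), DESeq2 (adjusted p = 0.0844), quantile normalization (adjusted p = 0.0382), and without PS DEX mouse 34 or AS DEX mouse 42 (adjusted p = 0.0968 and 0.0857). In control it passed without control DEX mouse 112 or AS DEX mouse 72 (adjusted p = 0.0911 and 0.0976). The mean of the 3 phenotypes was 0.34 (SE 0.06) (adjusted p = 0.000258), and no difference between phenotypes in the response passed. With saline, Lipe was lower in PS than in control without overlap, a log2 difference of -0.33 (SE 0.10) (adjusted p = 0.147), not past the threshold, and with quantile normalization it passed (adjusted p = 0.0927). Of the Lipe exon length, 15.6% is shared with 4732471J01Rik, a gene on the opposite strand that has its own row. The study describes its PFC libraries as strand-specific, but the strand setting of the counting is not given in the sources used here.

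Of lipoprotein lipase and its inhibitor, Angptl4 rose in the mean DEX effect, and Lpl is described by its levels. Lpl (ENSMUSG00000015568.16, chr8:68880491-68907448, plus strand) encodes lipoprotein lipase. With saline its normalized counts were 252, 304, 292 and 292 in control, 427, 459.9, 407 and 408 in PS and 495, 382, 477 and 442 in AS. Every stressed saline mouse lay above every saline control, by 0.58 (SE 0.12) in PS and 0.65 (SE 0.12) in AS on the log2 scale, 1.49- and 1.57-fold, and no test is given because the gene was chosen for its saline levels. With DEX the counts were 368, 249, 247 and 280.0 in control, 321, 306, 282 and 341 in PS and 259, 356, 332 and 358 in AS, and the ranges overlapped.

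The log2 difference of Lpl between DEX and saline mice was -0.45 (SE 0.12) in PS and -0.46 (SE 0.12) in AS, in both without overlap between the groups, and -0.01 (SE 0.12) in control. These share the saline libraries on which the gene was chosen, so a lower level against them is partly fixed by that choice, and they carry no test. After DEX, PS and AS were above control by 0.14 (SE 0.12) and 0.20 (SE 0.12), not past the threshold (adjusted p = 0.629 and 0.477). Ordered by mean, the groups ran from control saline (285 ± 22.5) and control DEX (286 ± 56.8) through PS DEX (312 ± 24.9) and AS DEX (326 ± 46.4) to PS saline (425 ± 24.8) and AS saline (449 ± 49.8), and only the step from AS DEX to PS saline parts groups that do not overlap.

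Angptl4 (chr17:33773750-33781830, minus strand), a secreted inhibitor of lipoprotein lipase, rose with DEX. Its normalized counts were 78.3, 55.3, 66.8 and 48.1 in saline controls and 155, 187, 97.7 and 156 in DEX controls, a log2 difference of 1.23 (SE 0.27) (adjusted p = 0.00674). In PS they were 86.6, 57.1, 109 and 49.4 and 103, 129, 108 and 150.2, ranges that overlap, with 0.75 (SE 0.27) (adjusted p = 0.156). The PS difference passed with quantile normalization (adjusted p = 0.0942) and without PS saline mouse 62 or AS DEX mouse 72 (adjusted p = 0.0738 and 0.0553). In AS they were 69.7, 67.1, 69.4 and 63 and 97.1, 83.4, 107 and 242, apart but with DEX mouse 72 well above the others. The AS difference of 0.83 (SE 0.27) passed (adjusted p = 0.0725) and without mouse 72 was 0.50 (adjusted p = 0.281). The call was also lost when only the AS groups were fitted and without AS saline mouse 8, 14 or 40. The mean of the 3 phenotypes, 0.94 (SE 0.16), passed with all libraries (adjusted p = 0.000126) and without mouse 72 (0.83, adjusted p = 7.09e-05).

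**Figure D3:**
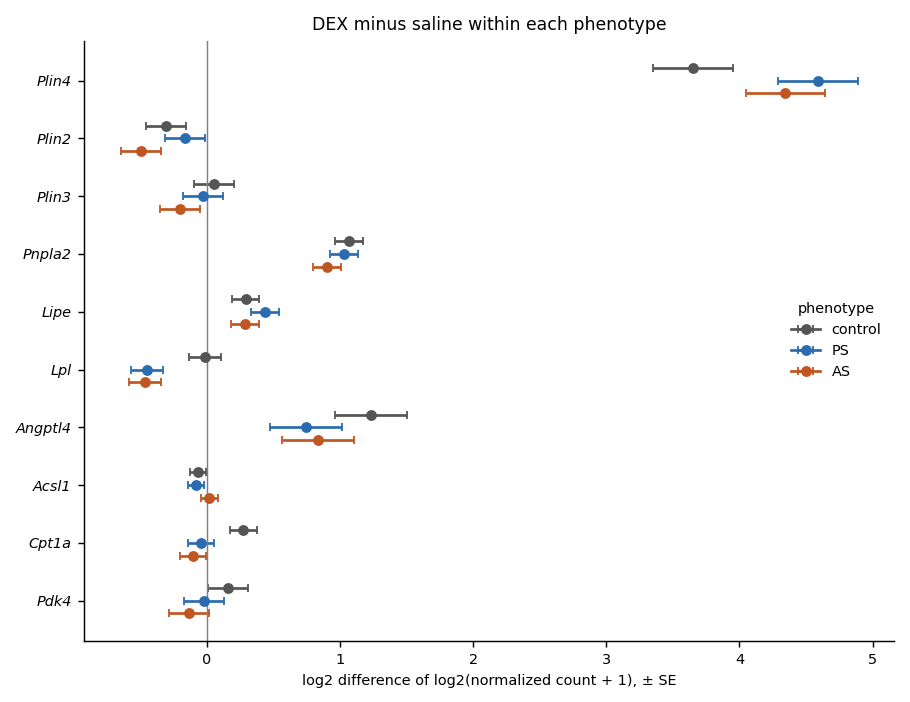
Difference between DEX and saline mice (x axis, log2 of normalized count + 1, points with SE from limma) for each gene (y axis) in control, PS and AS. Plin4 lies at 3.65 to 4.59, Pnpla2 at 0.90 to 1.07 and Lpl at -0.01 in control against -0.45 in PS and -0.46 in AS.

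The genes of fatty acid activation and oxidation, Acsl1, Pdk4 and Cpt1a, did not pass the threshold in any of the 13 comparisons. Acsl1 (chr8:46471037-46536051, plus strand), a long-chain acyl-CoA synthetase, was the most abundant member by count, from 1396 to 1802 over 24 libraries, with DEX differences of -0.08 to 0.02 (SE 0.06). Pdk4 (chr6:5483351-5496309, minus strand), a kinase that shuts off pyruvate dehydrogenase and a known glucocorticoid target in muscle and liver, had DEX differences of 0.16 (SE 0.15) in control, -0.02 (SE 0.15) in PS and -0.13 (SE 0.15) in AS. Its mean effect was 0.00, with 2 SE to either side reaching -0.17 and 0.17. Both bounds are smaller in size than the rise of Pnpla2 in any phenotype.

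Cpt1a (chr19:3322334-3385733, plus strand), which makes the acylcarnitines that enter mitochondria, was at 872, 698, 821 and 765 in saline controls and 1058, 945, 782 and 1050.2 in DEX controls. Its DEX difference was 0.27 (SE 0.10) in control, -0.04 (SE 0.10) in PS and -0.10 (SE 0.10) in AS, none past the threshold (adjusted p = 0.132, 0.933 and 0.665). The response of AS was below that of control by 0.38 (adjusted p = 0.219). Control DEX mouse 112 was the lowest of its group at 782. Without it the control difference was 0.37 (adjusted p = 0.0242) and the AS minus control difference in response was -0.47 (adjusted p = 0.0631), both past the threshold; without AS saline mouse 44 they also passed (0.27 and -0.46, adjusted p = 0.0906 and 0.0729), and with DESeq2 the control difference passed (adjusted p = 0.0964). Without mouse 112, PS and AS were also below control after DEX, with log2 differences of -0.36 and -0.32 (adjusted p = 0.0926 and 0.0955), against differences of -0.26 and -0.23 with all libraries, which did not pass.

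Over the 10 genes, DEX was past the threshold for 3 in control, all higher, where 6.49% of all genes were called, 4.03% higher and 2.46% lower. In PS it was past it for 4, 3 higher and 1 lower, against 5.36% of all genes, 2.74% higher and 2.62% lower. In AS it was past it for 5, 3 higher and 2 lower, against 8.77% of all genes, 3.82% higher and 4.95% lower. In the mean of the 3 phenotypes it was past it for 6, Plin4, Pnpla2, Lipe and Angptl4 higher and Plin2 and Lpl lower, against 15.5% of all genes, 7.46% higher and 8.01% lower. These counts include Plin4 and Lpl, which were chosen on libraries in these contrasts, and are a description; among the other 8, 2, 2, 3 and 4 were past the threshold in the same order. The median log2 difference of the 10 in the mean DEX effect was 0.02, beside -0.00239 over all genes.

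DEX and saline mice did not overlap in control for 4 members, all higher, while 10.1% of all genes were apart, 5.81% higher and 4.32% lower. In PS, 3 members were apart and higher and 1 lower, against 10.1% of all genes, 5.54% higher and 4.57% lower. In AS, 4 were apart and higher and 2 lower, against 9.02% of all genes, 4% higher and 5.02% lower. Pnpla2 and Lipe were apart and higher in all 3 phenotypes, Angptl4 was in control and AS, and Plin2 was apart and lower in AS. The counts also hold Plin4 among the higher in each phenotype and Lpl among the lower in PS and AS. Both were chosen on libraries in these contrasts, so these counts too are a description.

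With saline, Lpl alone of the 10 was past the threshold in PS against control, where 1.51% of all genes were called, 0.718% higher and 0.796% lower. It was also the 1 member past it in AS against control, where 0.156% of all genes were, 0.0497% higher and 0.107% lower, and nothing is read from these since the gene was chosen there. In PS against control, Lpl was apart and higher and Plin4 and Lipe apart and lower (Plin4 narrowly, with 55.0 the highest in PS and 55.2 the lowest in control), against 11.3% of all genes, 5.15% higher and 6.12% lower. In AS against control, Lpl was apart and higher and no member lower, against 6.51% of all genes, 3.45% higher and 3.06% lower. In AS against PS, Lipe and Pnpla2 were apart and higher, with log2 differences of 0.24 (SE 0.10) and 0.19 (SE 0.10), against 5.22% of all genes, 2.86% higher and 2.36% lower, and neither passed the threshold (adjusted p = 0.934 and 0.934).

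By limma, edgeR and DESeq2, no member was past the threshold in AS against PS with either treatment, where limma called 0% of all genes with saline and 0% with DEX. None was past it in PS or AS against control after DEX, where limma called 0.199% and 0.867% of all genes. None was past it in the differences of DEX response, where limma called 0% of all genes for PS minus control, 0.348% for AS minus control and 0% for AS minus PS. At an unadjusted limma p under 0.05, 1 of the 10, Lipe, was past it in AS against PS with saline and 0 with DEX, against 4.77% and 4.12% of all genes. After DEX, 2 were past that limit for PS against control, Pnpla2 and Cpt1a, and 1 for AS against control, Cpt1a, against 14% and 13.4% of all genes. In the differences of response, leaving out Lpl, 2 of 9 were past it for PS minus control, Plin4 and Cpt1a, 1 for AS minus control, Cpt1a, and 0 for AS minus PS, against 9.98%, 13.5% and 2.44% of all genes.

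**Figure D4:**
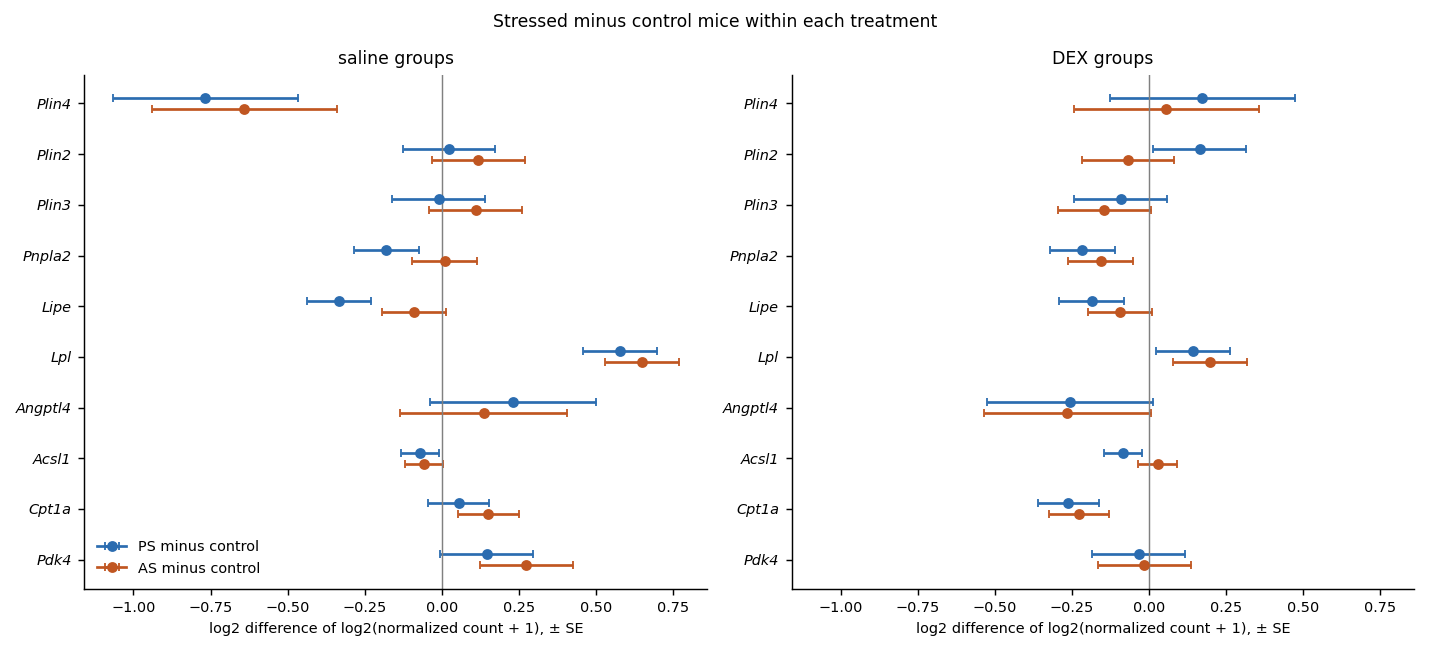
Difference between stressed and control mice (x axis, log2 of normalized count + 1, points with SE from limma) for each gene (y axis), with saline on the left and DEX on the right. Lpl lies at 0.58 and 0.65 with saline and at 0.14 and 0.20 with DEX, and Plin4 has the widest errors, 0.30 each.

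Some markers of vascular cells were called lower with DEX, most of them in AS. Of all genes, 4.03% were called higher and 2.46% lower with DEX in control, 2.74% and 2.62% in PS and 3.82% and 4.95% in AS. In AS, 4 of 8 endothelial markers were lower (Pecam1, Flt1, Tek and Cdh5). The 8 summed to 5475 to 9003 normalized counts with saline and 4065 to 6185 with DEX. Of 8 mural cell markers, 4 were lower in AS (Acta2, Vtn, Rgs5 and Tagln), with sums of 4823 to 8623 and 3771 to 4760.4. In PS, 1 endothelial and 0 mural markers were lower, with median log2 differences of -0.29 and -0.31. In AS these medians were -0.61 and -0.71, and in control, where 0 passed, 0.27 and 0.36. None passed in a difference of DEX response between phenotypes, where 0% to 0.348% of all genes did. After DEX, however, 3 endothelial and 3 mural markers were lower in AS than in control, with medians of -0.82 and -0.77. In that comparison 0.76% of all genes were called lower. After DEX, none of either list passed in PS against control or in AS against PS. In control the sums were 6049 to 8295 and 6696 to 10019 for endothelial and 5117 to 6857 and 5748 to 8786 for mural markers, and in PS 5729.7 to 8148 and 3588 to 8138 for endothelial and 5035 to 6627 and 3408 to 6821 for mural markers. The 8 microglial markers summed to 9659.5 to 10915 in saline controls, 10669 to 11358 in saline PS and 11476 to 12219 in saline AS, with none past the threshold between these groups. After DEX they summed to 9598 to 12432, 9404 to 10299 and 9332 to 11120.1, and 3 of 8 were lower than with saline in PS (P2ry12, Cx3cr1 and Aif1) and 3 in AS (P2ry12, Cx3cr1 and Aif1), while in control 2 were lower (P2ry12 and Aif1) and 1 higher. The 8 astrocyte markers summed to 110246 to 133465, 118557 to 137923 and 116851 to 144214 in the saline groups of control, PS and AS and to 123592 to 146730.0, 107852 to 126814 and 111325 to 144662 in the DEX groups; with DEX, 2 were higher and 0 lower in control, 2 were higher and 1 lower in PS and 1 were higher and 2 lower in AS. Of 8 oligodendrocyte markers, 0 were higher and 2 lower with DEX in control, 0 were higher and 0 lower in PS and 2 were higher and 0 lower in AS, and their sums were 30646 to 48347, 24889.9 to 36032 and 20136 to 34348 with saline and 26667 to 38182, 31598 to 40606 and 32147 to 47265 with DEX. Of 6 leptomeningeal markers, none passed between saline groups or with DEX. Their median log2 difference from control with saline was 0.43 in PS and 0.49 in AS. With DEX it was 0.37 in control, -0.72 in PS and -0.61 in AS. Of 5 blood markers none passed, with DEX medians of 0.36, -0.795 and -0.19 in control, PS and AS. These lists were added after their values were seen. The part of these cell types in the values of the members was not tested.

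Beyond the 10 genes, 8 lists of lipid genes held 129 genes, of which 108 had a row, and 20 were higher and 7 lower in the mean DEX effect, with a median of 0.00066 beside -0.00239 over all genes tested. Of all genes, 15.5% were called in that effect, 7.46% higher and 8.01% lower. Of 12 measured genes of the droplet coat and surface, none passed in limma in that effect. Rab18 was at 0.07 (SE 0.04, adjusted p = 0.326) and Vps13c at -0.07 (SE 0.12, adjusted p = 0.846). Within phenotypes, Fitm2, which helps bud droplets from the endoplasmic reticulum and was named after its values were seen, rose in AS by 0.20 (SE 0.07, adjusted p = 0.0852). The mean DEX effects of the 12 lay between -0.07 and 0.10, against 4.19 for Plin4.

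In triglyceride synthesis 3 of 11 rose and 3 fell. Dgat2, which adds the last fatty acid, rose by 0.18 (SE 0.05, adjusted p = 0.019), Lpin1, a phosphatidate phosphatase, by 0.18 (SE 0.04, adjusted p = 0.00215) and Agpat5 by 0.14 (SE 0.03, adjusted p = 0.00516). Gpam, which begins the pathway at the mitochondrial outer membrane, changed by -0.23 (SE 0.05, adjusted p = 0.00392), Soat1, which esterifies cholesterol, by -0.18 (SE 0.05, adjusted p = 0.0205) and Dgat1 by -0.14 (SE 0.04, adjusted p = 0.0258). Of 12 genes of triglyceride and monoglyceride breakdown, Mgll (monoglyceride lipase) alone passed, at 0.17 (SE 0.05, adjusted p = 0.0452), and the activator and inhibitor of adipose triglyceride lipase, Abhd5 and G0s2, were at -0.09 (SE 0.05, adjusted p = 0.299) and -0.06 (SE 0.09, adjusted p = 0.814).

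Of 12 measured genes for partners of lipoprotein lipase and lipoprotein receptors, 1 rose and 2 fell. Furin, a protease that cleaves lipoprotein lipase, rose by 0.16 (SE 0.04, adjusted p = 0.0147). Lipg (endothelial lipase) and Lrp8 (an APOE receptor) changed by -0.33 (SE 0.08, adjusted p = 0.00464) and -0.21 (SE 0.05, adjusted p = 0.00469). Of 14 genes of fatty acid transport and activation, Mfsd2a and Acsl3 rose. Mfsd2a, the transporter of lysophospholipid DHA at the blood-brain barrier, had 552 ± 31, 434 ± 90.5 and 478 ± 62.6 normalized counts in the saline groups of control, PS and AS and 1285 ± 208, 1041 ± 75.7 and 1150.0 ± 159.9 in the DEX groups, a mean effect of 1.25 (SE 0.07, adjusted p = 1.12e-11). In AS the difference of Mfsd2a was 1.26 (SE 0.13, adjusted p = 7.75e-07). Acsl3, an acyl-CoA synthetase of droplets and the endoplasmic reticulum, rose by 0.27 (SE 0.04, adjusted p = 2.22e-05).

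Of 20 genes of mitochondrial fatty acid oxidation 4 rose and 1 fell. Cpt2, the inner-membrane partner of Cpt1a, rose by 0.32 (SE 0.09, adjusted p = 0.0154), while Acads changed by -0.23 (SE 0.07, adjusted p = 0.0282). Acacb, which makes the malonyl-CoA that inhibits CPT1, had 177 ± 30.1 normalized counts with saline and 298 ± 31 with DEX in control, 144 ± 3.41 and 224 ± 34.2 in PS, and 169 ± 47.7 and 154 ± 8.82 in AS, with a mean effect of 0.43 (SE 0.09, adjusted p = 0.00117). After DEX it was lower in AS than in control, with a log2 difference of -0.95 (SE 0.15, adjusted p = 0.00934), and the test of the difference in response itself gave -0.86 (SE 0.21, adjusted p = 0.11). Of 9 pyruvate dehydrogenase kinases and phosphatases, Pdk2 rose by 0.18 (SE 0.04, adjusted p = 0.00128).

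Of 18 measured genes for transcription factors of lipid genes, 8 rose and 1 fell, with a median of 0.10. Cebpa and Cebpd, which drive fat cell differentiation, rose by 0.77 (SE 0.06, adjusted p = 1.75e-09) and 0.74 (SE 0.11, adjusted p = 2.07e-05), and Ppara, the receptor that turns on fatty acid oxidation genes, by 0.56 (SE 0.15, adjusted p = 0.0149). Srebf2, the activator of cholesterol synthesis, changed by -0.13 (SE 0.04, adjusted p = 0.0419). With saline, Ppard was lower in PS than in control, with a log2 difference of -0.41 (SE 0.07, adjusted p = 0.00246), and the droplet protein Rab18 was higher, with 0.25 (SE 0.07, adjusted p = 0.0735). After DEX, Furin was lower in AS than in control, with -0.30 (SE 0.07, adjusted p = 0.0789).

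**Figure D5:**
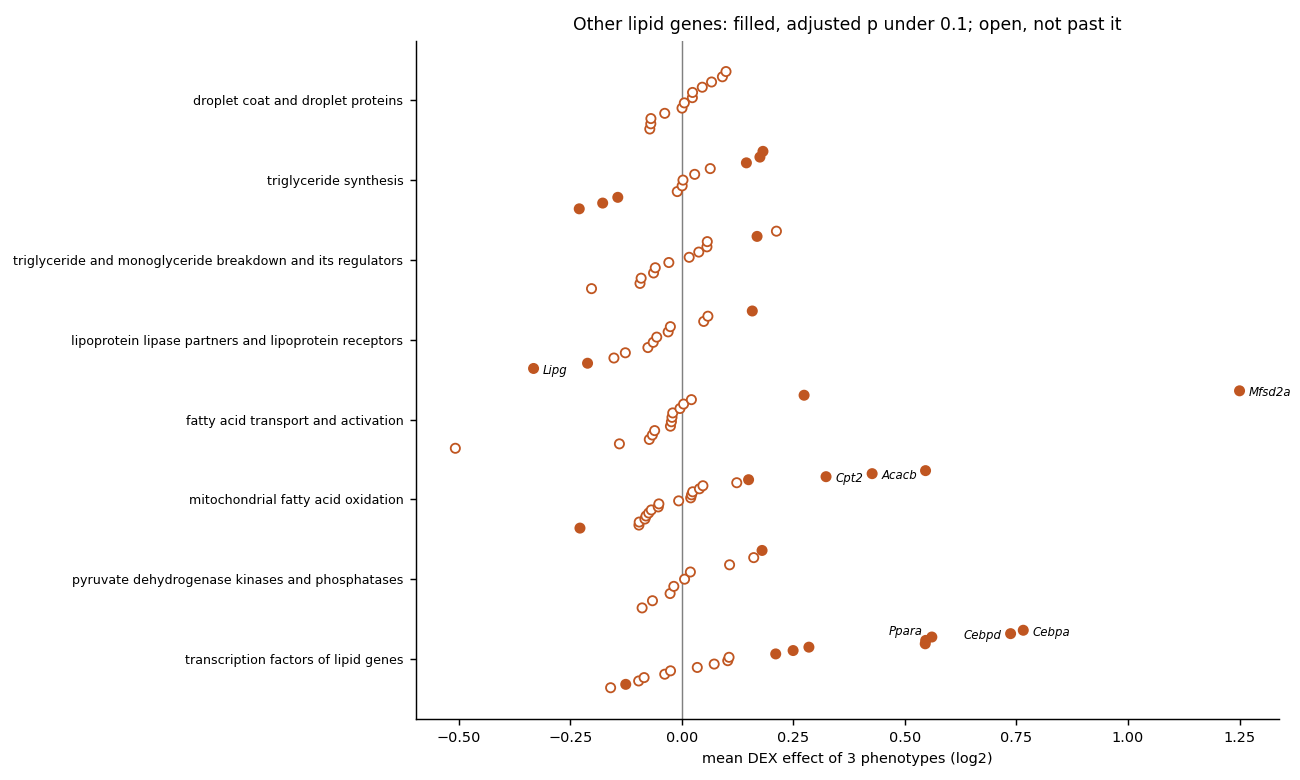
Mean DEX effect of the 3 phenotypes (x axis, log2) for the 108 measured genes of 8 lipid lists (y axis); each point is a gene, filled where its adjusted p was under 0.1. Mfsd2a stands at 1.25, Cebpa at 0.77, and no droplet coat gene is filled.

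The pattern of Plin4 over the 6 group means was compared with those of 13541 other genes averaging 10 or more normalized counts over the libraries, by the root mean square difference of the centred log2 group means. The 5 nearest were Tekt4 (0.45), 9330121J05Rik (0.64), Gm11827 (0.68), Tmem52 (0.92) and Gm19439 (0.94). Tekt4, which encodes a tektin of ciliary microtubules, was at 10.5 ± 6.52, 3.85 ± 1.10 and 7.38 ± 4.17 normalized counts with saline in control, PS and AS and 73.5 ± 19.6, 76.2 ± 21 and 65.7 ± 17.2 with DEX. Gm11827 was at 3.55 ± 1.76 with saline and 54.8 ± 15.2 with DEX in control. Tekt4 and Gm11827 reached the minimum mean of 10 through their DEX groups. At such low saline counts, the 1 added to each count before the log2 shapes much of the pattern. All 5 had lower counts than Plin4 after DEX. Among the members, Pnpla2 ranked 35 and Angptl4 43 in nearness to Plin4, and Lpl ranked 13112. Their differences from Plin4 were 1.61, 1.66 and 2.29, all well above those of the 5 nearest. Acsl1, which passed in no comparison, was at 2.13.

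The 5 genes nearest to Lpl were Cox6b2 (0.07), Jsrp1 (0.08), Cd63 (0.09), Enkur (0.09) and Gm12841 (0.10). Cd63, a tetraspanin of late endosomes and the most abundant of them, was at 802 ± 60.5 in saline controls, 1066 ± 135 in saline PS and 1056 ± 78.6 in saline AS, and at 798 ± 153, 802 ± 51.1 and 805 ± 86 after DEX. The nearest member to Lpl was Plin2, at rank 771. These ranks describe the 6 means and carry no test.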

How the data were processed

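RNA-seq was done on polyA RNA of 24 prefrontal cortex samples. Per the study's methods and the submitters' processing notes, reads were trimmed with fastp 0.20.1, aligned to mm10 with HISAT2 2.2.1, counted with featureCounts of Subread 2.0 on GENCODE vM22 genes and divided by DESeq2 1.36.0 size factors; the strand setting of the counting is not given in the sources used here. The authors deposited this signal as normalized counts for 14074 genes. Values of every library were whole multiples of 1 read within 0.01 read, so reads were recovered for count tests. The 3 deposited tables of fold changes, p-values, mean counts and gene annotation were not used.

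Groups came from the library names, with dep1 and dep2 read as PS and AS from the series' design text. limma 3.58.1 (R 4.3.3, trend) was fitted to log2(normalized count + 1) of all genes and 24 libraries with a mean per group, 13 comparisons, Benjamini-Hochberg adjustment over all genes and a threshold of 0.1. A fold change on this scale understates low genes. The mouse numbers do not recur between groups. Alternatives were TMM scaling, quantile normalization, a pseudocount of 8, minimums of 100 normalized counts or of 10 reads in every library, only the groups compared, library size as a covariate, edgeR 4.0.16, DESeq2 1.42.0 and each library left out. Fits were tested on simulated data with 200 genes changed by DEX in control. At the threshold of 0.1, 12.7% of limma calls, 9.28% of edgeR calls and 19.7% of DESeq2 calls there were false. Coordinates and exon lengths are from GENCODE vM21. The members and all gene lists were chosen with earlier results of these data known. Named list genes are up to 3 rises and 3 falls per list past the threshold in the mean DEX effect, the 2 most abundant where none passed, and any past it in other comparisons between phenotypes; Abhd5, G0s2, Fitm2 and the vascular and microglial markers were named after their values were seen. A gene that this rule names is not reported here.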

Additional observations from a re-analysis of the deposited data

Results flagged for a closer look

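In 5 of 60 sets of 4 mice (10 genes, 6 groups), a mouse lay apart from the other 3 by Dixon's criterion (the gap to the nearest mouse over the range of the 4), where chance gives about 1 in 20. Control saline mouse 109 had 169.7 normalized counts of Plin4 against 55.2 to 59.4 in the others. AS DEX mouse 72 had 242 of Angptl4 against 83.4 to 107 in the others. PS saline mouse 28 had 517 of Pnpla2, the lowest of its group, and 307 of Pdk4, the highest. PS saline mouse 2 had 1484 of Acsl1, the lowest of its group. No member's DEX response differed past the threshold between phenotypes.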

How the results depend on the processing

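Over 9 alternative settings and 24 fits with a library left out, the directions of all members past the threshold were kept, and Pnpla2, Lipe, Angptl4 and Plin2 passed in the mean DEX effect in each. With quantile normalization, 2 members were past the threshold in PS against control with saline instead of 1. With a library left out, the members past it numbered 0 to 1 in AS against control with saline (Lpl, chosen there, lost without control saline mouse 106 or AS saline mouse 8 or 40), 3 to 5 in DEX in control (the most, Lipe and Cpt1a added, without DEX mouse 112), 3 to 5 in DEX in PS, 3 to 6 in DEX in AS (the fewest, with Plin2 and Angptl4 lost, without AS saline mouse 8 or 40), 0 to 1 in the AS minus control difference of response, 0 to 1 in PS against control after DEX and 0 to 1 in AS against control after DEX (Cpt1a in all 3, without control DEX mouse 112 and, in the first, also without AS saline mouse 44). The log2 DEX difference of Plin4 in control ranged from 3.47 to 4.04. No paired analysis was possible because the mouse numbers are not shared between groups. The causes of these changes were not tested. With 4 mice a group, a difference in Plin4 between phenotypes within a treatment has an SE of 0.30 on the log2 scale in this fit, which is coarse. That SE rests on 1 spread fitted over all groups, and relative to their means the DEX groups varied less than the saline groups.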

Other observations

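Within 250 kb of Plin4, 22 genes had a row, and 1 of them passed the threshold in the mean DEX effect, Lrg1 (leucine-rich alpha-2-glycoprotein, chr17:56119678-56122001, minus strand, mm10), 9.88 kb from Plin4; it was named after its values were seen. Lrg1 went from 87.3 ± 18.5 to 302 ± 55.5 normalized counts (SD, n = 4) in controls, in PS from 86.3 ± 22.5 to 244 ± 45, and in AS from 100.1 ± 30.4 to 259 ± 99.5, a mean log2 difference of 1.54 (SE 0.15, limma adjusted p = 4.41e-08). The other 21 measured neighbours, Plin3 among them, did not pass, while 15.5% of all genes did. These are positions and values, and no relation between neighbours was tested.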
